A study of Mus musculus with 2 samples.

Results

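The genes described here are 29 markers of microglia, the resident macrophages of the brain, and of macrophages in general. They were followed in RNA from a dissociated mouse hippocampal culture treated with TTX (tetrodotoxin, which closes voltage-gated sodium channels and so silences action potentials) and from a control culture. Every noncontrol probe whose gene name on the array was in the list was taken, which gave 38 probes for 28 of the 29 genes, of 55681 probes on the array. The same 38 probes occupied 47 of 59305 noncontrol spots. Spi1, the transcription factor PU.1, had no probe under that name.

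The TTX culture was exposed to TTX for 2 days before RNA extraction, and the control culture had none, per the sample titles and source names. The same treatment text stands on both samples, and the dose is 2 µM in the design text but 2 mM in the source name. Both cultures came from the hippocampi of ICR mouse embryos at embryonic day 16.5 and were taken at 12 days in vitro. Both were grown in medium with 5.5% fetal bovine serum and received 5 µM Ara-C, which blocks DNA synthesis in dividing cells, 2 days after plating. The study asked how gene expression in such cultures differs when action potentials are blocked. There was 1 array for each condition, so no difference below has a replicate or a test, and a difference between dishes cannot be told apart from one due to TTX. The small number of arrays limits the precision of every value.

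Microglia arise from yolk sac progenitors outside the neural lineage and depend on signalling through the receptor Csf1r for their survival. PU.1 and Irf8 direct their gene programme. In the developing hippocampus they take up synapses and dying cells through complement and lipid-sensing receptors and digest them in lysosomes, and neurons hold them in check through ligands such as Cx3cl1. In neuron cultures prepared from embryos they are usually a small minority among neurons and astrocytes.

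A probe is 60 bases long, and its signal below is the authors' processed intensity after quantile normalization between the arrays, in arbitrary units. Signals of different probes are not on a common scale, so levels were compared within a probe, or as the sum over a list on each array, which its brightest probes set. The probes that read the gene products most relevant here are shown 5′ to 3′, with positions in mouse build mm9 as the array annotation gives them. The first pair carries the brightest signals of Siglech and Itgam, and the capitals mark an uninterrupted tandem repeat, a run in which a short unit follows itself without a break. For these 2 probes only 30 of the 60 bases are printed, at chr7:63034118-63034147 on the plus strand for Siglech and chr7:135261755-135261784 on the plus strand for Itgam. The other probes have no such repeat. They are the coding-sequence probe of Itgam at chr7:135260275-135260334 (plus strand), the probe of Tyrobp at chr7:31200651-31202378 (plus strand), whose 60 bases span 1728 bases of genome and so cross an exon junction, and the probes of C1qa at chr4:136452409-136452468 and C1qb at chr4:136436578-136436637 (both minus strand).
Siglech: tctgtctcAAAGAAAGAAAGAAAGAAAGAA
Itgam: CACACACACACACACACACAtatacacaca
Itgam coding probe: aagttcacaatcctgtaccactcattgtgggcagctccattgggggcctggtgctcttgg
Tyrobp: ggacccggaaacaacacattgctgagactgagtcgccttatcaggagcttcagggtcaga
C1qa: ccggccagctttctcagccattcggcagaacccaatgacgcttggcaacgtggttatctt
C1qb: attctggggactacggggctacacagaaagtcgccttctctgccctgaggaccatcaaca

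Microglial markers were detectable in both cultures, but not the whole set. Of the 38 probes, 22 (57.9%) were well above background on both arrays, against 49.2% of all probes. In all, 23 were above it on the TTX array (60.5%, against 51.3% of all probes) and 26 on the control array (68.4%, against 53.3%). The call is Feature Extraction's own flag for a spot that stands clear of its local background. On the TTX array alone 1 probe was above background (2.63%, against 2.07% of all probes). On the control array alone 4 were (10.5%, against 4.06%), and 11 were above it on neither (28.9%, against 44.7%). Of those 4, the probes of Itgam, Ptprc and Tmem119 had nearly equal signals on the arrays. They read 21.3, 20.5 and 19.0 on TTX, and 22.6, 20.8 and 19.4 on control. For these genes the call differed while the level hardly did. By gene, 19 of 28 had a probe measured on both arrays. Irf8 was above background on the TTX array only, Inpp5d, Ptprc and Tmem119 on the control array only, and Cx3cr1, P2ry12, P2ry13, Cybb and Cd53 on neither. Genes detected in both cultures included the growth factor receptor Csf1r, the Trem2 receptor with its adaptor Tyrobp, all 3 C1q chains and most lysosomal members. The purinergic receptors and Cx3cr1, which mark resting microglia in the brain, were not among them.

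**Figure D1:**
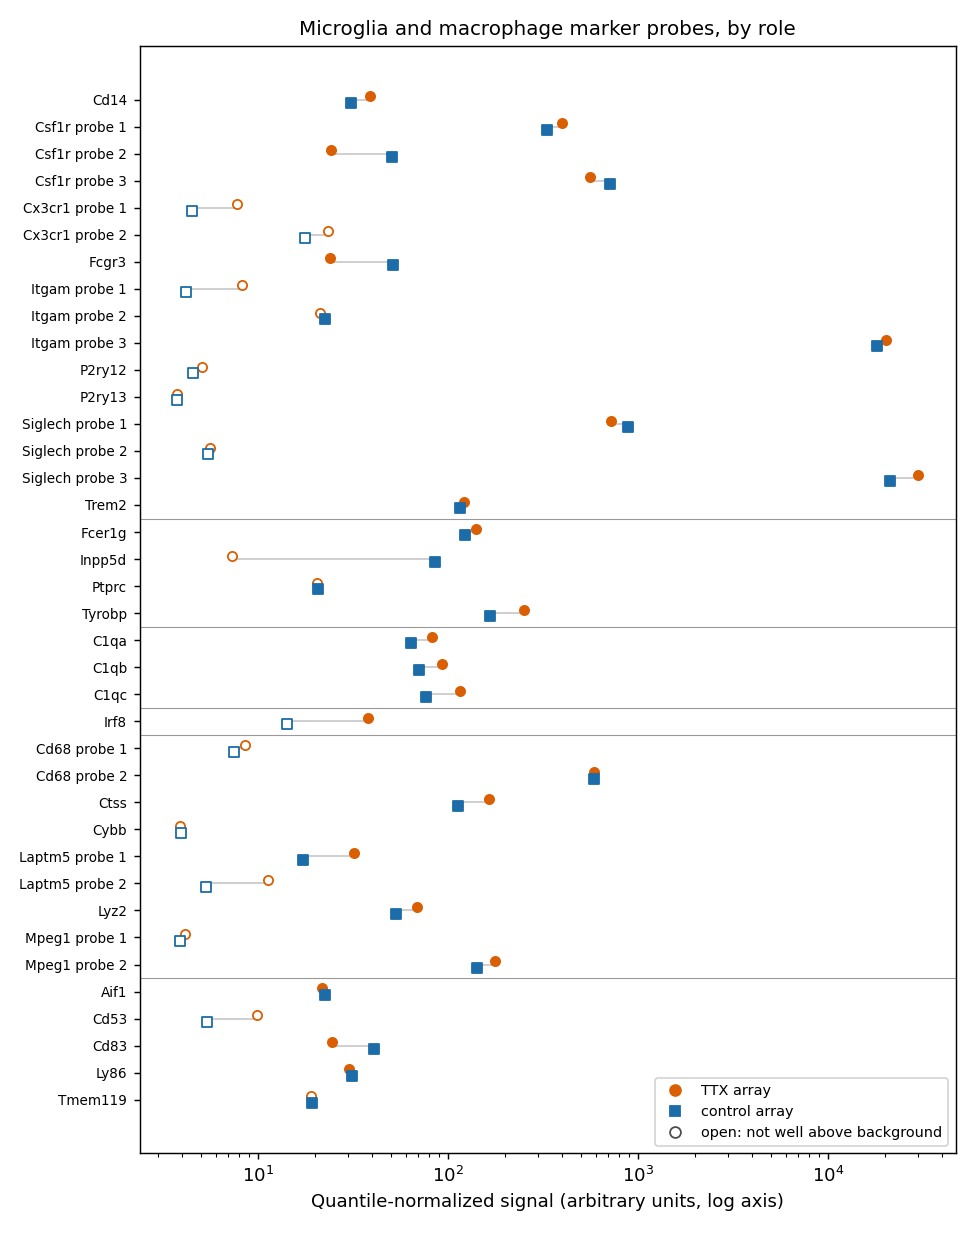
Signal of each of the 38 marker probes on the TTX array (circles) and the control array (squares), in arbitrary units on a log axis, with probes grouped by the role of their gene. Open symbols are not well above background. Cx3cr1, P2ry12, P2ry13, Cybb and Cd53 have open symbols throughout, and Inpp5d and Irf8 are the genes above background on 1 array whose symbols lie farthest apart.

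Across the 19 measured genes the median log2 difference, TTX minus control, was 0.32, with 14 genes above 0 and 5 below. The median was 0.14 with the normexp background model and 0.19 with no filter on dim probes. Over all 14013 measured genes the median was 0.01, and 51.3% lay above 0. The members ranged from -1.10 for Fcgr3 to 0.90 for Laptm5. None was at least 2-fold higher in the TTX culture, where 2.1% of all measured genes were, and 1, Fcgr3, was at least 2-fold lower, where 3.38% of all genes were. At 1.5-fold, 3 members were higher (Tyrobp, C1qc and Laptm5; 7.65% of all genes) and 2 were lower (Cd83 and Fcgr3; 8.62% of all genes). In whole-culture RNA, fewer cells of a type and less RNA per cell cannot be told apart, and the same holds for more.

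Most members had low signals, where a difference is less precise. Of the 19, 15 had a mean log2 signal between 4 and 8, with a median difference of 0.33 and 11 above 0, while the 4386 genes of the array in that range had a median of 0.01 and 51.2% above 0. Among those 4386 genes, 11.9% were at least 1.5-fold higher and 12.2% at least 1.5-fold lower in the TTX culture, and 3.67% were at least 2-fold higher and 5.02% at least 2-fold lower. Repeat spots of the same probe on these arrays gave log2 differences with a pooled SD of 0.15 over 251 probes, and 0.23 over the 83 of them in this signal range. For each member, Feature Extraction's own error of the 2 signals gives an error of the log2 difference, which ran between 0.07 and 0.40 with a median of 0.22. These errors cover measurement within an array and not differences between cultures.

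**Figure D2:**
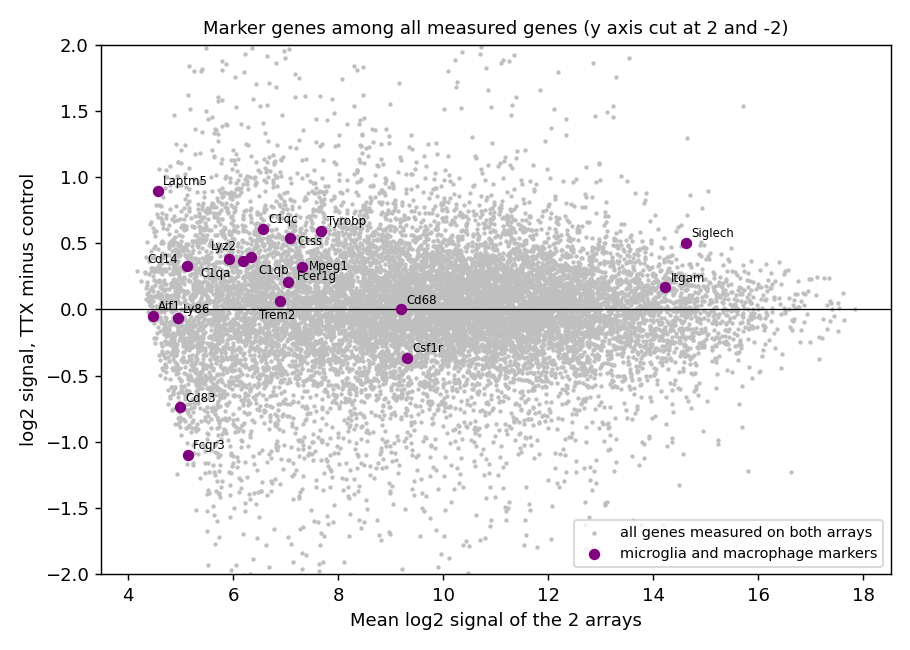
Log2 difference (TTX minus control) against the mean log2 signal of the 2 arrays for all 14013 measured genes (grey) and the 19 measured markers (purple). Most markers sit at low signal, with 14 of 19 above the zero line, and Siglech and Itgam lie apart at high signal.

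Among the receptors that microglia turn to the outside, 6 of 9 were measured, with a median log2 difference of 0.11 and members on both sides of 0. Csf1r, the receptor for Csf1 and Il34 on which microglial survival depends, had a signal of 558 on the TTX array and 718 on the control array at its brightest probe, a log2 difference of -0.36. All 3 of its probes were above background on both arrays, but they did not give the same direction. A probe nearer the 5′ end of the transcript read 401 on the TTX array and 334 on the control array (0.26), and a probe across an exon junction read 24.2 on the TTX array and 51.0 on the control array (-1.07). No single direction can therefore be given for Csf1r. Trem2, the lipid and apolipoprotein receptor that signals through Tyrobp, had 122 on the TTX array and 117 on the control array, a log2 difference of 0.06 with an error of 0.22.

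Fcgr3, an activating receptor for immunoglobulin G, had the lowest difference among the 19 genes measured on both arrays. Its signal was 24.0 on the TTX array and 51.3 on the control array, a log2 difference of -1.10 with an error of 0.37. The difference shrank to -0.33 when the background was subtracted by another model (normexp), and it fell short of 2-fold at -0.95 with 75th percentile scaling and -0.95 with no normalization. Another receptor for immunoglobulin G, the inhibitory Fcgr2b, is no member but lies in the same gene cluster. Fcgr2b was not well above background on the TTX array (16.2) and read 96.6 on the control array. Against the weakest detected signal of the TTX array, Fcgr2b was at least 4.91-fold lower in the TTX culture. Mouse Fcgr3 and Fcgr2b have closely similar extracellular parts, and whether these probes separate them was not tested. Of the other Fc receptors looked at, Fcgrt, which carries immunoglobulin G inside cells, read 46.1 and 46.7 (TTX and control, -0.02), and Fcgr1 and Fcgr4 were not well above background on either array. Fcer2a read 21.8 on the TTX array, not well above background, and 23.6 on the control array, above it.

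Cd14, a co-receptor for bacterial lipopolysaccharide, read 38.9 on the TTX array and 31.0 on the control array, a log2 difference of 0.33 that equals its error of 0.33. Cx3cr1, the receptor for the neuronal ligand Cx3cl1, had 2 probes, and neither was well above background on either array (23.5 on TTX and 17.8 on control for the brighter probe). P2ry12, which guides microglial processes to released nucleotides, read 5.08 on TTX and 4.57 on control. P2ry13, a related nucleotide receptor, read 3.76 on TTX and 3.77 on control. Such signals set no level for these 3 receptors.

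Siglech and Itgam were the members read at high signal, and in both the reading came from the tandem-repeat probes printed above. Siglech, a sialic acid binding lectin of microglia and plasmacytoid dendritic cells, read 29978 on the TTX array and 21126 on the control array at the probe whose last bases repeat the unit AAAG over 22 bases (0.50). Its second probe, at transcript position 1695, read 721 on the TTX array and 892 on the control array (-0.31). The probe between them, at position 2019 of the same transcript against 2281 for the repeat probe, was not well above background on either array (5.61 on TTX and 5.49 on control). The 3 Siglech probes thus gave a higher value, a lower value and no level.

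Itgam, the CD11b chain of complement receptor 3, read 20357 on the TTX array and 18143 on the control array at the probe that begins with the unit CA repeated over 20 bases, a log2 difference of 0.17. Its coding-sequence probe was not well above background on the TTX array (21.3) and was on the control array (22.6). The probe nearest the 5′ end was not well above background on either (8.22 on TTX and 4.19 on control). Over the whole array, 197 probes held a tandem repeat of at least 20 bases, and 96.4% of these were above background on both arrays, against 49.2% of all probes. How far such probes read other transcripts with the same repeat was not tested. Left out together, Siglech and Itgam changed little: the other 17 measured members had a median log2 difference of 0.32, with 12 above 0.

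Of the adaptors and enzymes that carry the receptors' signals inward, 2 of 4 were measured and both were higher in the TTX culture. Tyrobp (DAP12), the shared adaptor of Trem2 and Siglech, had a signal of 252 on the TTX array and 167 on the control array, a log2 difference of 0.59 with an error of 0.21. Fcer1g, the shared gamma chain of the activating Fc receptors, had 142 on the TTX array and 123 on the control array (0.21, error 0.22). The difference of Tyrobp exceeded its error and that of Fcer1g did not, while Trem2 and Fcgr3, whose proteins pair with these adaptors, read 0.06 and -1.10.

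Inpp5d (SHIP1), a lipid phosphatase that restrains signals from these adaptors, gave the widest gap of the list. Its single probe was not well above background on the TTX array, at 7.34, and read 85.6 on the control array, so it was at least 4.35-fold lower in the TTX culture. The bound takes the dim array at its detection floor, the weakest signal among its detected probes (19.7 on TTX and 16.0 on control). Probes not well above background can read above that floor, as the brighter Cx3cr1 probe did (23.5 on TTX and 17.8 on control). Each "at least" value in this text therefore holds against the floor and is not a strict limit. Of the 706 genes above background on the control array alone, 17.4% had a bound of at least 2-fold. With 1 spot on each array, this value has no repeat. Ptprc (CD45), a phosphatase on all nucleated blood cells, crossed the background call on the control array only, with nearly the same signals of 20.5 on TTX and 20.8 on control.

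The complement C1q chains were all measured and all higher in the TTX culture. C1q starts the classical complement cascade, microglia are its main source in the brain, and each C1q molecule is built of A, B and C chains whose genes lie side by side on chromosome 4. C1qa read 82.9 on the TTX array and 64.3 on the control array (0.37, error 0.23). C1qb read 93.1 on the TTX array and 70.9 on the control array (0.39, error 0.24). C1qc, averaged over its repeat spots, read 117 on the TTX array and 76.5 on the control array (0.61). The 3 chains therefore lay between 0.37 and 0.61 on the log2 scale, and 26.1% of the 4386 genes of like signal were at least 0.3 higher.

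C1qc is the member measured most firmly on these arrays, since its probe is printed at 10 spots. At the 9 spots kept on both arrays the signals were 108 to 132 on the TTX array and 65.9 to 89.2 on the control array, with no overlap. The log2 difference over these spots was 0.61 ± 0.12 (SD over 9 spots of the same 2 arrays), the lowest 0.44 and the highest 0.82. Those spots share the same 2 RNA samples, so they measure the precision of the reading and not the spread between cultures.

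**Figure D3:**
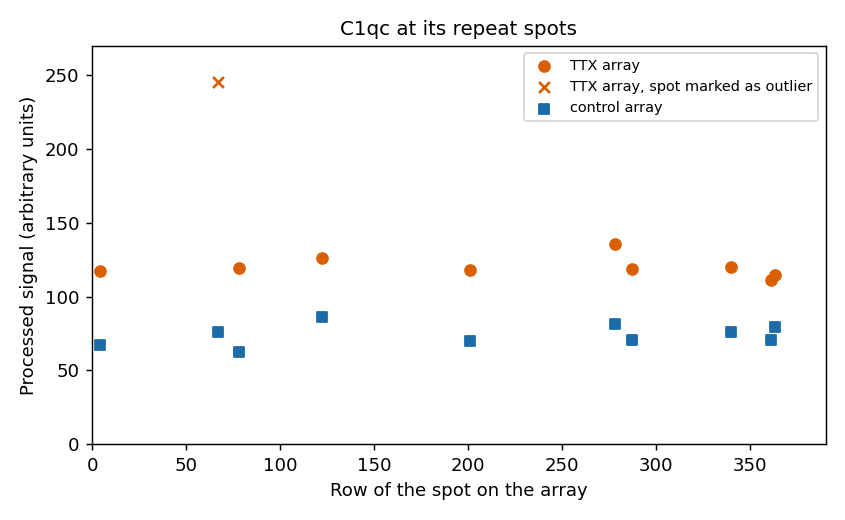
Processed signal of C1qc before normalization, in arbitrary units, at each of its 10 spots by row on the array. At every row the TTX signal (circles) lies above the control signal (squares); the spot in row 67 of the TTX array (cross) was marked as an outlier by Feature Extraction and left out.

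For the C1q genes, whose readings lay close together, the 250 bases before the annotated start are printed from RefSeq (GRCm38.p6) for C1qb and C1qc; C1qa was not matched. PU.1 belongs to the ETS family, whose members bind purine-rich DNA. The string AGGAAG is called the core here, and its longer form GAGGAAGT is a known PU.1 box. Capitals mark each match on either strand. C1qb (chr4:136886201-136886450, minus strand) had 1 core, 52 bases before the start. C1qc (chr4:136892915-136893164, minus strand) had 1 box, 195 bases before the start, and 2 cores, of which 1 lies inside the box.
C1qb: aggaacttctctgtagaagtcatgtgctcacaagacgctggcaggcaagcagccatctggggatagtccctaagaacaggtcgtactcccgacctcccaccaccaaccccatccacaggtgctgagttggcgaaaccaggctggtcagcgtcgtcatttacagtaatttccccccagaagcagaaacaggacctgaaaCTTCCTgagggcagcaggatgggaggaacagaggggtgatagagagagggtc
C1qc: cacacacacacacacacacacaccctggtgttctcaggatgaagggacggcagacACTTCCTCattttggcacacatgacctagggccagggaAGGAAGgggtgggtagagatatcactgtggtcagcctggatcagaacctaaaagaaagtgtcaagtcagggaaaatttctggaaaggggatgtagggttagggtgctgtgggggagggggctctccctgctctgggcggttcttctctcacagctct
Promoters of 300 bases were given for 22 of the members. The core AGGAAG was in 15 of them (68.2%), against 38.4% of 27025 genes. The box GAGGAAGT, which contains the core, was in 4 (C1qc, Cd53, Ctss and Inpp5d; 18.2%, against 3.69%). Such matches describe the sequence and do not show binding. The genes with a box gave no shared direction. Ctss and C1qc were higher in the TTX culture, Inpp5d was at least 4.35-fold lower against the detection floor, and Cd53 was not measured.

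The transcription factors were poorly covered. Irf8, which with PU.1 specifies microglia, read 38.0 on the TTX array and was not well above background on the control array, at 14.2. Against the detection floor of the control array, Irf8 was at least 2.38-fold higher in the TTX culture. Of the 357 genes above background on the TTX array alone, 54.3% had a bound of at least 2-fold. A probe that carries the RefSeq accession of Spi1 under the older name Sfpi1 read 4.17 on the TTX array and 4.14 on the control array and was not well above background on either. The list's direct readings of its lineage factors thus come to a single probe on a single array.

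Of the 6 genes of lysosome, digestion and killing, 5 were measured, with a median log2 difference of 0.38. Ctss (cathepsin S), a lysosomal protease enriched in microglia, read 164 on the TTX array and 113 on the control array (0.54, error 0.21). Lyz2, the lysozyme of macrophages, read 69.2 on the TTX array and 53.1 on the control array (0.38, error 0.25). Lyz1 is a close copy of Lyz2, and whether the probe separates them was not tested. Mpeg1 (perforin-2), a pore-forming protein that kills engulfed bacteria, read 177 on the TTX array and 142 on the control array (0.32, error 0.21), and its other probe was not well above background on either array.

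Laptm5, a lysosomal membrane protein of blood cells and microglia, had the highest difference among the genes measured on both arrays, 32.1 on the TTX array and 17.3 on the control array (0.90, error 0.38). Its signals lay close to background, its second probe was not well above it on either array, and the difference was 0.27 with the normexp background model. Cd68, a lysosomal glycoprotein used to stain phagocytic macrophages, read 589 on the TTX array and 589 on the control array at its brightest probe (0.00, error 0.20), and its second probe was not well above background on either. Cybb, the catalytic chain of the phagocyte NADPH oxidase, read 3.89 on TTX and 3.93 on control, neither well above background. Its partner Cyba, which is made in many cell types, read 401 on the TTX array and 317 on the control array (0.34). Ncf4, a cytosolic subunit, was above background on the control array only (17.6 on TTX, 27.4 on control). The membrane core of the phagocyte oxidase was thus read through the chain that is not particular to macrophages.

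The other surface and cytoplasmic markers did not share the direction of the C1q and lysosomal genes. Of 5, 3 were measured, and all 3 lay below 0. Cd83, a surface protein of activated antigen-presenting cells, read 24.6 on the TTX array and 41.0 on the control array (-0.74, error 0.34; -0.29 with normexp). Ly86 (MD-1), the partner of a Toll-like receptor homologue, read 30.1 on the TTX array and 31.5 on the control array (-0.07). Aif1 (Iba1), the protein most often stained to count microglia, read 21.8 on the TTX array and 22.5 on the control array (-0.05, error 0.40). The last 2 differed by less than their errors.

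Tmem119, a marker that separates resident microglia from other macrophages, read 19.0 on the TTX array and 19.4 on the control array, above background on the control array only. Cd53, a tetraspanin of blood cells, read 9.94 on TTX and 5.38 on control, neither well above background. Together with Cx3cr1 and the nucleotide receptors, the genes most closely tied to resident microglia in the brain gave signals at or below the limit of these arrays.

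**Figure D4:**
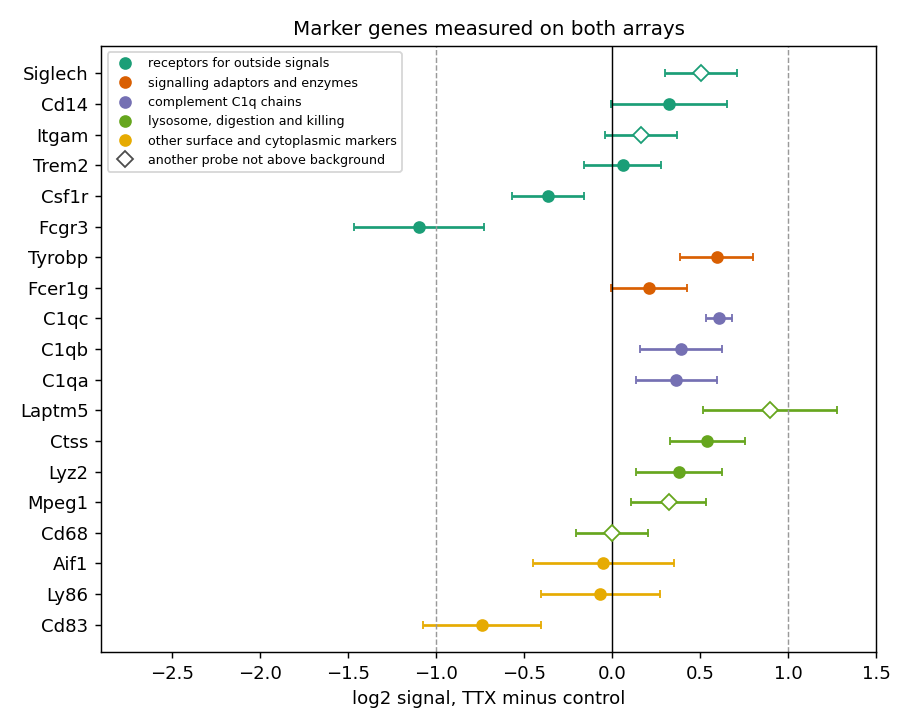
Log2 difference (TTX minus control) of the 19 measured marker genes by role; bars are Feature Extraction's error of the difference, which covers measurement on these 2 arrays only. The C1q chains and lysosomal genes lie at or above 0, Fcgr3 passes the dashed line for 2-fold lower, and diamonds mark genes with another probe not above background on at least 1 array.

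The members were also described by position on the array, where each part holds different genes. A gap between the parts therefore cannot be told apart from a difference between genes. The 8 members with spots up to the middle row of the array had a median log2 difference of 0.34 and the 10 after it a median of 0.19, C1qc being left out because its spots lie on both sides. Genes of the array with a mean log2 signal between 4 and 8 had medians of 0.04 up to the middle row and -0.02 after it. After adjustment for block of rows and signal level, the 19 measured members had a median of 0.27, with 13 above 0. With only the spots after the middle row, C1qc included, the median was 0.21, with 8 of 11 above 0. How much of the members' values came from position was not tested. Leaving out the 5 genes with a second probe that was not above background (Cd68, Itgam, Laptm5, Mpeg1 and Siglech) gave a median of 0.27 over 14 genes.

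The members were also set beside other genes of microglia. Of 33 further microglia genes, 13 were measured, and they lay mostly the other way, with a median log2 difference of -0.39, 2 above 0 and 11 below. P2ry6, a nucleotide receptor of phagocytosis, read 194 on the TTX array and 511 on the control array (-1.39), and Cyth4, a guanine nucleotide exchange factor of blood cells, read 113 on TTX and 225 on control (-0.995). Tgfbr1, a receptor for transforming growth factor beta found on many cell types, read 185 on the TTX array and 56.5 on the control array (1.71). Without a filter on dim probes the median of this list was 0.00, and it was -0.14 with the mean over probes. Some of the 11 genes below 0 had another measured probe above 0. Which cells gave the signals of this list was not tested. The members and these further genes, as read here, therefore give no common direction.

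Genes that rise in disease-associated microglia had a median log2 difference of 0.42, with 11 of 13 measured genes above 0, and 0.25 with the spots after the middle row alone. Cd9, a tetraspanin, read 1320 on the TTX array and 757 on the control array (0.80), and Itgax, the CD11c integrin chain, read 83.1 on TTX and 49.9 on control (0.74). Lpl, a lipoprotein lipase, read 7374 on the TTX array and 9102 on the control array (-0.30). Igf1, a growth factor, read 491 on TTX and 515 on control (-0.07) at its brightest probe, and its highest probe gave 0.39. Several genes of this list are also made by astrocytes or neurons. Lysosomal genes beyond the members had a median of 0.16 (11 of 19 above 0), which was -0.01 with spike-in scaling. Their highest were Ctsb (0.36) and Npc2 (0.35), and their lowest were Scarb2 (-0.33) and Lgmn (-0.26).

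Complement genes beyond C1q had a median log2 difference of 0.08, with 8 of 9 measured genes above 0. Several of these 8, among them C4b (error 0.21), exceeded 0 by less than their errors. Some had another measured probe below 0. Cd55, which protects cells from complement, read 289 on the TTX array and 94.6 on the control array (1.61), and C2, the protease activated next after C1, read 70.2 on TTX and 45.5 on control (0.62). Cd59a, which blocks the membrane attack complex, read 412 on TTX and 523 on control (-0.34), and C4b read 198 on TTX and 197 on control (0.00). Engulfment receptors had a median of 0.07 over 11 of 13 genes, with no settled direction: it was 0.23 with 75th percentile scaling and -0.42 with the stricter filter or with the spots after the middle row of the array. Tyro3, a receptor tyrosine kinase found mainly on neurons in the brain, read 735 on the TTX array and 4752 on the control array (-2.69), and Scarb1, a lipoprotein receptor, read 317 on TTX and 787 on control (-1.31). Itgb5 (0.65) and Axl (0.60) were the highest.

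Ligands through which other cells address microglia had a median log2 difference of 0.28, with 7 of 12 measured genes above 0, and 0.47 with the spots after the middle row alone. Il34, a ligand of Csf1r made by neurons, read 1376 on the TTX array and 721 on the control array (0.93), and Cxcl12, a chemokine, read 263 on TTX and 136 on control (0.96). Cx3cl1, the ligand of Cx3cr1, read 24924 on the TTX array and 31602 on the control array (-0.34), and Cd47, a surface signal against engulfment, read 5666 on TTX and 8158 on control (-0.53). Toll-like receptor and cytokine genes were measured for 8 of 22, with a median of -0.09, and the highest was Ccl9 (1.32) and the lowest Tlr7 (-0.77). Of the MHC class II genes 4 of 7 were measured, with a median of -0.21. H2-DMa read 739 on the TTX array and 1127 on the control array (-0.61). Ciita, their transcriptional activator, was above background on the TTX array only, at 67.5 against 13.3 on the control array. Against the detection floor of the control array, Ciita was at least 4.23-fold higher in the TTX culture.

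Markers of other cells that the cultures could hold were read in the same way. None of the 12 genes of border macrophages and monocytes with a probe was above background on either array, among them Mrc1, Cd163, Lyve1, Ms4a7 and Ccr2. Of 9 neutrophil genes 2 were measured, Camp (-0.54) and Elane (-0.22), while S100a8 and S100a9 were not well above background on either array. Of 10 lymphocyte and NK cell genes 4 were measured, with Cd4 at 0.18, Cd79a at 0.00, Nkg7 at -0.18 and Cd3e at -0.28. Their signals on TTX and control were 1976 and 1749 for Cd4, 648 and 733 for Nkg7, and 204 and 248 for Cd3e. Cd79a read 24.8 and 24.9, and Elane 264 and 309. Which cells gave these signals was not tested, and the same holds for the members. Astrocyte markers moved in the direction of the members: 17 of 19 were measured with a median log2 difference of 0.40, 14 above 0 and 3 below, and a summed signal of 76555 on the TTX array and 62208 on the control array, most of it from Aldoc (44178 on TTX and 38494 on control, chosen after its values were seen). Gfap, the astrocyte filament protein, read 8427 on TTX and 4918 on control (0.78), and Slc1a2, a glutamate transporter, read 867 on TTX and 1794 on control (-1.05).

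Neuron markers were all measured, 19 of 19, with a median log2 difference of -0.20 and a summed signal of 300363 on the TTX array and 328973 on the control array. With the spots after the middle row alone the median was -0.05. Fibroblast and pericyte markers were measured for 10 of 12, all above 0, with a median of 0.28. Oligodendrocyte lineage markers were measured for 7 of 15 with a median of 0.38, which was 0.02 with the stricter filter on dim probes and 0.05 with none. Endothelial markers had a median of -0.12 over 6 of 11 genes (0.03 with the mean over probes), and proliferation genes -0.02 over 12 of 17 (-0.25 with the spots after the middle row). The part of a changed mix of cells in the members' differences was not tested.

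**Figure D5:**
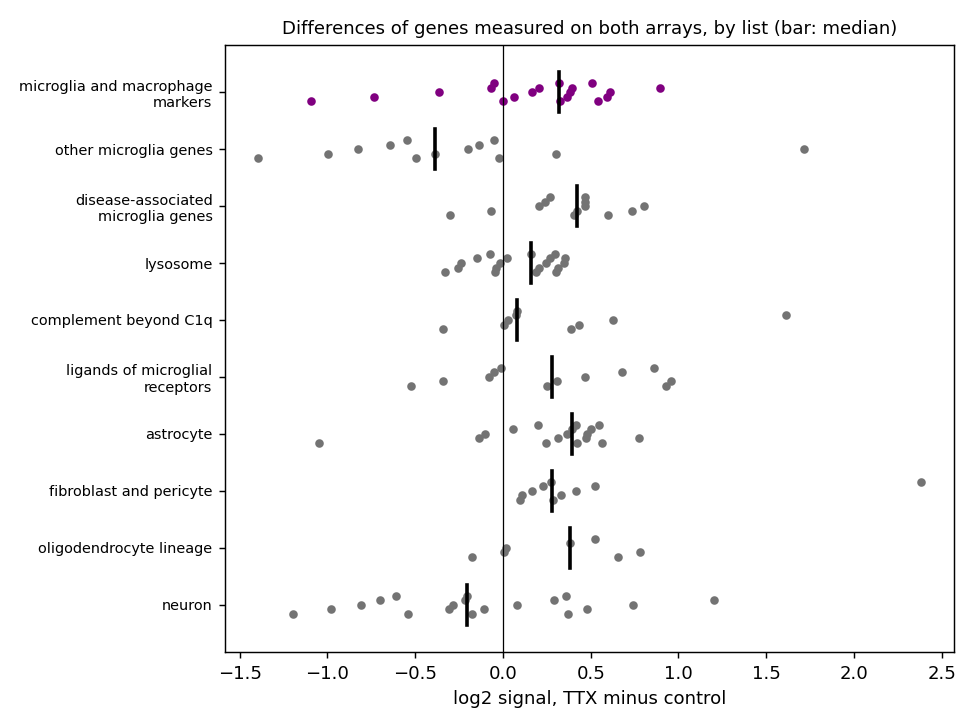
Log2 difference (TTX minus control) of each measured gene (points) in the marker list (purple, top) and in other lists (grey), with the median as a bar. Medians are 0.32 for the markers, -0.39 for other microglia genes, 0.42 for disease-associated microglia genes, 0.40 for astrocyte genes and -0.20 for neuron genes.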

How the data were processed

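Total RNA of 2 cultures was measured in a single colour, Cy3, on Agilent 8x60K arrays of the same slide. Per the file headers, the authors' deposited scanner files give linear spot intensity, already corrected for background. The headers name Feature Extraction 10.7.1.1 and the submitters' processing notes 9.5.1.1. The deposited value table is also linear intensity, with a median of 24.9 in both columns, and across 27398 probes its differences had a correlation of 0.9999 with those used here. The authors deposited no log2 values: these were all computed for this report.

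Outlier spots (170 on TTX, 131 on control) were dropped, and saturated spots numbered 0. The remaining intensities were quantile normalized, as the design text names, and their log2 values averaged per probe (Python 3.11.15, numpy 2.4.6, pandas 2.3.3). Measured probes are those with a share of at least 0.5 of spots detected over background on each array, and 52.2% of spots on TTX and 54.2% on control were detected. A gene has the value of its brightest measured probe. By symbol 28002 of 55681 probes were named, a further 2846 by RefSeq accession (GRCm38.p6, for names only), and 24833 had no symbol, leaving 22133 genes. Probe coordinates are mm9, per the file headers. An annotation of that build was not used here.

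With 1 array per condition no test was made. Sizes were judged at 2-fold, and lists were described by counts and medians. Alternatives were other scalings, normexp with offset 50 (limma 3.58.1, R 4.3.3), the deposited table, other filters, the mean over probes, position on the array, other folds, bounds and leaving out groups of members. The steps were tested on simulated data, where log2 differences of 1.0 and -1.0 in 50 genes each came back as means of 0.96 and -1.01. The 2-fold rule called 17 and 27 of these genes, and 43 of 14532 genes simulated without a difference. Noise was taken from repeat spots, and both simulated arrays had the control array's background calls. The simulation therefore holds no spread between cultures and no detection on 1 array only. All 29 members were named. In other lists the 2 highest and 2 lowest measured genes could be named, and every gene of a list with fewer than 6 measured. Some genes that this rule allows are not reported here. Members and lists were chosen with earlier results of these data known.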

Additional observations from a re-analysis of the deposited data

Results flagged for a closer look

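The spot of C1qc in row 67 of the TTX array, which Feature Extraction marked as an outlier and which enters no value above, had a processed signal of 245 before normalization. The same spot on the control array had 75.9. With that spot included, the log2 difference of C1qc was 0.71.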

How the results depend on the processing

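The median log2 difference of the members stayed above 0 under all 18 alternatives, between 0.14 (normexp) and 0.38 (75th percentile scaling), and only the normexp value moved beyond the spot error. With 75th percentile scaling, and with no normalization between arrays, 1 member was at least 2-fold higher (Laptm5) and 0 were lower. No member was 2-fold lower (0) with normexp, with the stricter filter on dim probes or without the receptors, and 0 were 3-fold lower. With no filter on dim probes (28 genes), and with genes above background on 1 array at their bound (23 genes), 1 was higher and 2 were lower. At 1.5-fold, 3 were higher and 2 lower. Above 0 were 9 of 10 members with the stricter filter and 8 of 11 with the spots after the middle row of the array. Of 174 single-gene values 9 moved, and of 150 list medians 15 moved; values near 0 changed sign for Aif1, Ly86 and Cd68 under other scalings and for Trem2 under normexp. The cause was not tested. The median of all genes was -0.03 with 75th percentile scaling and -0.09 with spike-in scaling. Alternatives chosen after seeing the data left out genes with discordant or tandem-repeat probes, put back the marked C1qc spot, or kept to log2 signals between 4 and 8. No paired analysis was possible because each condition had 1 array. Most members lie near the background, where a 2-fold difference rests on signals close to the detection floor.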
